A study of Saccharomyces cerevisiae with 6 samples.

Results

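The RNA levels of 10 yeast genes that encode histone chaperones or the HIR regulators of histone genes were compared between cells with a mutant histone H3 and cells with wild-type H3. The members were the probe sets that the platform annotation assigns to exactly 1 gene, where that gene is HIR1, HIR2, HIR3 or HPC2 of the HIR complex, ASF1, RTT106, VPS75, or RLF2, CAC2 or MSI1 of chromatin assembly factor 1 (CAF-1). They numbered 13 probe sets for 10 genes, out of 5656 genes with a single-gene probe set, and 4 of them belong to CAC2 while 9 genes have 1 each. A further probe set annotated to ASF1 together with other genes was left out.

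The mutant group comprised 3 arrays from Saccharomyces cerevisiae with an H3 in which lysines 4, 36 and 79 had been changed to arginine, sites that are methylated in wild-type cells, and the control group comprised 3 arrays from cells with wild-type H3. Both groups grew in selective galactose medium and spent 6 h in selective glucose medium before harvest. Per the series design, glucose turns off the wild-type H3 gene in the mutant, so that the substituted protein becomes the only H3, and cultures were replicated. The strain background, the plasmids and the promoters are not given in the sources used here, and any such difference between the groups cannot be told apart from the substitutions. Values are Affymetrix probe set signals scaled to equal array means, in arbitrary units, and differences are mutant minus wild type on a log2(signal + 16) scale.

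Histone chaperones are proteins that bind histones outside nucleosomes, carry them to DNA and take part in their removal from it. The HIR complex places H3-H4 on DNA outside replication and, in budding yeast, represses the core histone gene pairs other than HTA2-HTB2 outside S phase. Asf1 takes up new H3-H4 and passes it to HIR or to CAF-1, and CAF-1 places it behind replication forks. Rtt106 works with both, and Vps75 binds the acetyltransferase Rtt109, which modifies new H3 before deposition.

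Arrays correlated at 0.964 to 0.983 within the mutant, 0.985 to 0.989 within the wild type and 0.961 to 0.981 between the groups. As deposited, the mutant arrays had trimmed means of 0.888, 0.868 and 0.767 times the wild-type mean, in the order of replicates 1, 2 and 3. Equal scaling removes these factors, and the values without it are given where they change a call or a sign, and for the members.

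No member passed the test. Of the 13 probe sets, 12 reached a mean scaled signal of 50 and were tested, which covers all 10 genes. None had a limma adjusted p under 0.05 in either direction, where 0.896% of the 6808 probe sets tested were called higher and 1.35% lower in the mutant. The adjusted p of the members ran from 0.186 to 0.972, and 1 of 12 had an unadjusted p under 0.05, against 19.6% of all probe sets tested. In RNA of whole cultures, a different share of cells at a stage and a different RNA level per cell cannot be told apart. Of the 12, 8 had a higher mean in the mutant, against 52.5% of all probe sets tested. Taking each gene at its brightest probe set, 7 genes had a higher and 3 a lower mean in the mutant, with a median difference of 0.20 against 0.018 over all probe sets tested. All 12 of the 95% intervals lay within a difference of 1 (2-fold) in either direction, and 4 lay within 0.5.

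Of the HIR complex, HIR3 (YJR140C) had the smallest p of any member. HIR3, the largest subunit of the complex, gave scaled signals of 299.6, 343 and 324 in mutant replicates 1, 2 and 3, against 225, 272 and 243 in the wild-type replicates. All 3 mutant values lay above all 3 wild-type values. The means were 322 ± 21.7 in the mutant and 247 ± 23.5 in the wild type (SD, n = 3 each), a difference of 0.37 (SE 0.138, 95% interval 0.06 to 0.67) with a limma adjusted p = 0.186. It was the only member probe set whose groups did not overlap, 1 of 12, where the mutant lay wholly above in 14.3% and wholly below in 11.5% of all probe sets tested, 25.8% in all. On the deposited scale its groups overlapped and the difference was 0.13 (SE 0.134, limma adjusted p = 0.535), and over 15 alternatives the adjusted p ran from 0.179 to 0.535.

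HIR1 (YBL008W) and HIR2 (YOR038C) encode related WD-repeat subunits that bind each other. HIR1 gave 144, 161 and 169.6 in the mutant replicates and 137, 149.7 and 118 in the wild-type replicates, and the groups overlapped. Its difference was 0.21 (SE 0.150, limma adjusted p = 0.469). HIR2 gave 337, 313 and 418 in the mutant replicates, against 275, 314 and 284 in the wild-type replicates. Mutant replicate 3 stood highest, while mutant replicate 2 lay just under the highest wild-type value. The HIR2 difference was 0.27 (SE 0.150, limma adjusted p = 0.353). It was 0.15 without mutant replicate 3 and 0.35 without mutant replicate 2. HPC2 (YBR215W), the remaining subunit, gave 186, 192 and 121 in the mutant replicates and 157, 189 and 175 in the wild-type replicates. Here mutant replicate 3 was the lowest of the 6 arrays and the other mutant values lay in or just above the wild-type range. The HPC2 difference was -0.075 (SE 0.186, limma adjusted p = 0.857), and without mutant replicate 3 it was 0.12.

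**Figure D1:**
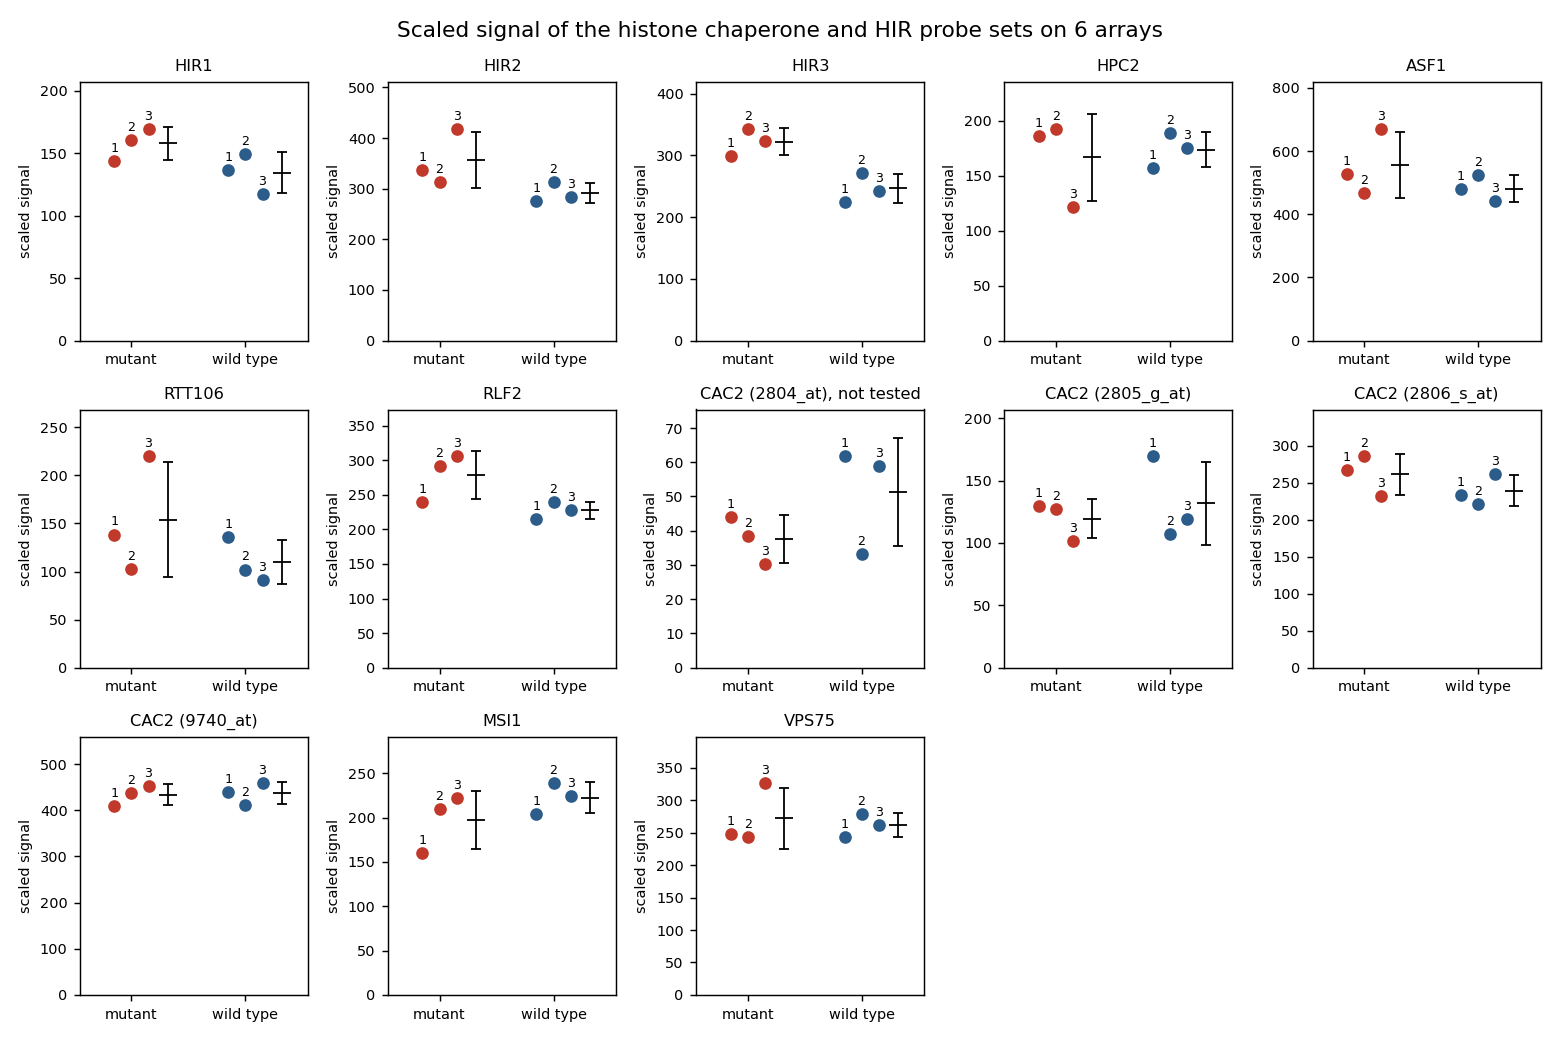
Scaled signal (y axis, arbitrary units, from 0) of the 13 member probe sets, with mutant arrays in red to the left of wild-type arrays in blue, replicate numbers above the points, and the mean ± SD of 3 arrays as a black bar. The groups are separate for HIR3 and overlap in the other 12 panels. Mutant replicate 3 is the highest array in the HIR1, HIR2, ASF1, RTT106, RLF2 and VPS75 panels.

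ASF1 (YJL115W), the H3-H4 chaperone shared by the HIR and CAF-1 routes, gave 526, 468 and 670.0 in the mutant replicates, against 479, 524 and 441 in the wild-type replicates. Mutant replicate 3 was the highest array and mutant replicate 2 lay within the wild-type range. Means were 555 ± 104 in the mutant and 481 ± 41.5 in the wild type (SD, n = 3 each), and the difference of 0.19 (SE 0.160, 95% interval -0.17 to 0.54) had a limma adjusted p = 0.554. Without mutant replicate 3 the ASF1 difference was 0.0465, and without mutant replicate 2 it was 0.30.

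RTT106 (YNL206C), which encodes an H3-H4 chaperone that also takes part in the repression of histone genes, had the largest difference and the widest interval among the members. It gave 139, 103 and 220.1 in the mutant replicates and 136, 102 and 91.7 in the wild-type replicates. Mutant replicate 2 lay within the wild-type range, replicate 1 just above it, and replicate 3 stood apart. The difference was 0.39 (SE 0.247, 95% interval -0.16 to 0.94, limma adjusted p = 0.417). It was 0.12 without mutant replicate 3 and 0.62 without mutant replicate 2. VPS75 (YNL246W), a chaperone of the Nap1 family, also had its highest value in mutant replicate 3, with 248, 243 and 326 in the mutant replicates and 243, 279 and 263 in the wild-type replicates. Its difference was 0.0455 (SE 0.154, limma adjusted p = 0.900), and it changed sign to -0.084 without mutant replicate 3.

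The mean differences of the 3 CAF-1 subunit genes did not share a sign. RLF2 (YPR018W), the large subunit also called Cac1, gave 239, 291 and 306 in the mutant replicates, against 215, 239.3 and 229 in the wild-type replicates. Mutant replicates 2 and 3 lay above the wild-type range and replicate 1 just inside it. The RLF2 difference was 0.27 (SE 0.144, 95% interval -0.05 to 0.59, limma adjusted p = 0.335). MSI1 (YBR195C), the small WD-repeat subunit, gave 160.3, 210.2 and 222 in the mutant replicates and 204, 239 and 225 in the wild-type replicates. Mutant replicate 1 was the lowest array and the other mutant values lay within the wild-type range. The MSI1 difference was -0.17 (SE 0.158, 95% interval -0.52 to 0.18, limma adjusted p = 0.593). It was -0.0375 without mutant replicate 1 and -0.25 without mutant replicate 3.

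CAC2 (YML102W), the middle subunit of CAF-1 and a WD-repeat protein, was read by 4 probe sets. The brightest, 9740_at, gave 408, 438 and 453 in the mutant replicates and 439, 411 and 458 in the wild-type replicates, which nearly coincide. Its difference was -0.0102 (SE 0.128, 95% interval -0.30 to 0.28, limma adjusted p = 0.972), the smallest difference of any member. Probe set 2806_s_at had a difference of 0.12 (SE 0.143) and 2805_g_at one of -0.11 (SE 0.188), both uncalled and opposite in sign. The dimmest, 2804_at, averaged 37.6 ± 6.90 in the mutant and 51.3 ± 15.8 in the wild type (SD, n = 3 each), lay under the filter and was not tested. Their mean differences had no common sign.

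**Figure D2:**
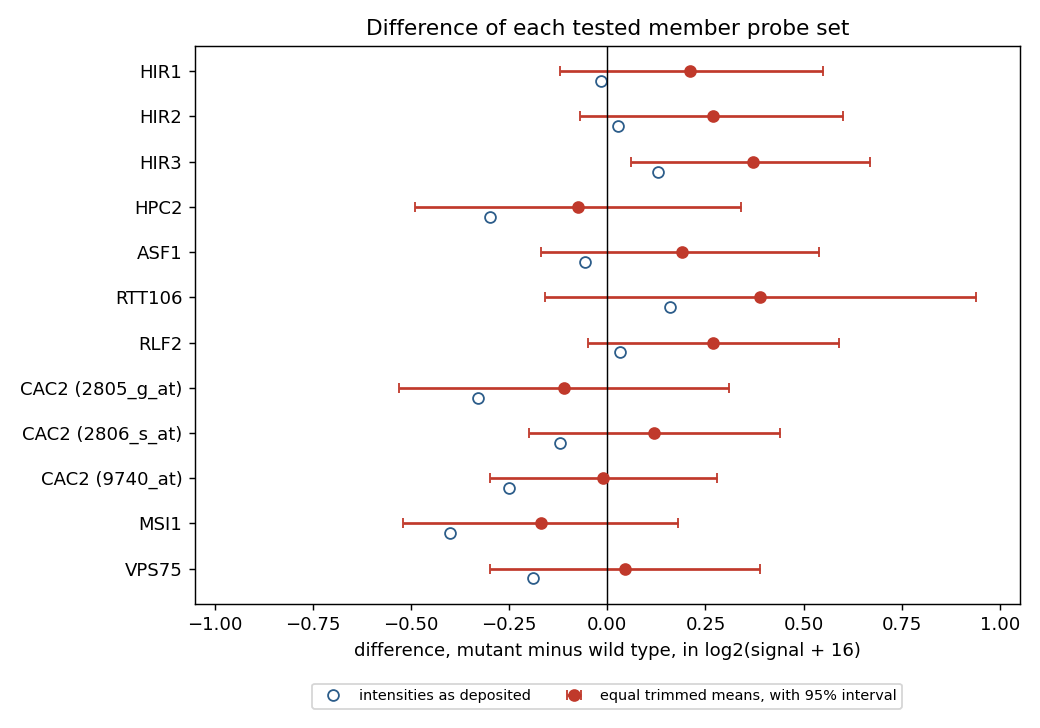
Difference between mutant and wild type (x axis, log2(signal + 16)) for the 12 tested member probe sets, filled with equal trimmed means and a 95% interval, open for the intensities as deposited. The interval of HIR3, 0.06 to 0.67, lies above 0 before adjustment, the other 11 include 0, and every open point lies to the left of its filled point.

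Without the rescaling of arrays, the difference of every tested member probe set was lower. With the deposited intensities the median difference of all probe sets tested was -0.22, in place of 0.018. The median over the 10 genes was -0.04 in place of 0.20, and 4 genes had a higher and 6 a lower mean in the mutant. HIR1, ASF1 and VPS75 changed sign, at -0.0155, -0.0579 and -0.19, as did CAC2 probe set 2806_s_at at -0.12. HIR2 and RLF2 were near 0, at 0.0281 and 0.0321, while RTT106 was at 0.16 and HPC2 at -0.30. The other tested CAC2 probe sets were at -0.33 (2805_g_at) and -0.25 (9740_at). MSI1 was lowest on this scale, with deposited signals of 35.3, 45.2 and 42.2 in the mutant replicates, against 50.6, 59.2 and 55.6 in the wild-type replicates. Its groups did not overlap there, as was so for CAC2 probe set 9740_at, which makes 2 of 12 members, both with the mutant below, where 33.0% of all probe sets tested had the mutant below. The MSI1 difference was -0.40 (SE 0.140, limma adjusted p = 0.104, the lowest over 15 alternatives, which reached 0.910), and no member was called, where 5.89% of all probe sets were.

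The spread was wider among mutant than among wild-type cultures for most members, as it was for most probe sets tested. Mutant replicate 3 was the highest of the 6 arrays in 6 of the 12 tested member probe sets (HIR1, HIR2, ASF1, RTT106, RLF2 and VPS75), and it was so in 30.7% of all probe sets tested. The SD of the log2 values was larger in the mutant than in the wild type for 8 of the 12, against 68.1% of all probe sets tested. For RTT106 the log2 SD was 0.498 in the mutant and 0.256 in the wild type, and for HPC2 it was 0.337 in the mutant and 0.123 in the wild type.

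**Figure D3:**
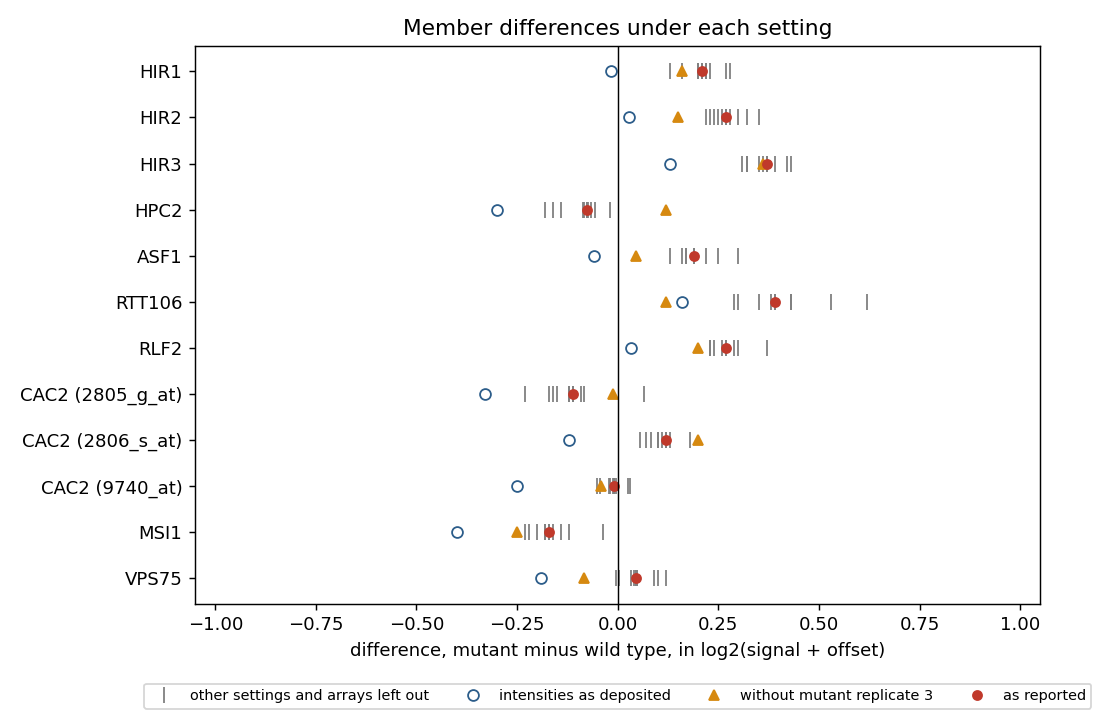
Differences of the 12 tested member probe sets (x axis, log2(signal + offset), mutant minus wild type) as reported (red), with intensities as deposited (open blue), without mutant replicate 3 (orange triangle) and under the other settings or with another array left out (grey ticks). HIR3 stays between 0.13 and 0.43, RTT106 ranges from 0.12 to 0.62, and the points of VPS75 lie on both sides of 0.

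Genes that act around these chaperones were taken as 5 lists, each gene at its brightest single-gene probe set. YTA7 was the only called gene among the 44 tested, where 0.896% of all probe sets tested were called higher and 1.35% lower. It encodes a bromodomain ATPase that borders histone genes and is known to limit the spread of repression by HIR and Rtt106. YTA7 (YGR270W) gave 248, 245 and 232 in the mutant replicates, against 426, 465 and 457 in the wild-type replicates. The groups did not overlap, as was so for 25.8% of all probe sets tested. The means were 241 ± 8.12 in the mutant and 449 ± 20.5 in the wild type (SD, n = 3 each), and YTA7 fell by 0.85 (SE 0.127, limma adjusted p = 0.0113). With the deposited intensities the difference was -1.09. The call was lost without wild-type replicate 1 (limma adjusted p = 0.051), wild-type replicate 2 (0.0561) or wild-type replicate 3 (0.064), while the difference stayed between -0.89 and -0.83 without any 1 array. The list of activators and boundary factors of histone genes had 5 of 6 genes tested, with a median of -0.011. SPT10, an activator of histone genes, lay under the filter at 38.7 ± 9.34 in the mutant and 42.3 ± 14.7 in the wild type (SD, n = 3 each).

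Among 12 other histone chaperones, all tested, none was called and 1 had an unadjusted p under 0.05, against 19.6% of all probe sets tested. The median difference was -0.017. HIF1, which binds H3-H4 with the acetyltransferase Hat1 and its partner Hat2, gave 294, 371 and 334 in the mutant replicates and 425, 412 and 408 in the wild-type replicates. All mutant values lay below all wild-type values, as was so for 11.5% of all probe sets tested. The HIF1 difference was -0.31 (SE 0.137, limma adjusted p = 0.249). POB3, a subunit of the FACT chaperone, had a difference of 0.29 (SE 0.131, limma adjusted p = 0.264), or 0.0388 with the deposited intensities, and its partner SPT16 one of -0.0136 (SE 0.155). With the deposited intensities HIF1 was called (limma adjusted p = 0.0468, difference -0.55), the lowest of 15 alternatives, which reached 0.531. Of all probe sets tested, 5.89% were called on the deposited scale.

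Among 10 enzymes and partners of new histones, none was called and 4 had an unadjusted p under 0.05, against 19.6% of all probe sets tested. The median was 0.157. RTT101, a cullin of the ubiquitin ligase that helps pass H3 on from Asf1, gave 132, 142 and 147 in the mutant replicates, against 78.0, 85.6 and 94.5 in the wild-type replicates. The groups did not overlap, as was so for 25.8% of all probe sets tested. The difference of 0.62 (SE 0.145) had a limma adjusted p = 0.0626, or 0.0476 without an intensity trend in the variance, and up to 0.255 under the other alternatives. The RTT101 difference was 0.39 with the deposited intensities. PSH1, a ubiquitin ligase for the centromeric H3 variant, had a difference of 0.47 (SE 0.141, limma adjusted p = 0.121), or 0.23 with the deposited intensities. HAT2 gave 421, 523 and 458 in the mutant replicates and 588, 552 and 602 in the wild-type replicates. Its difference was -0.31 (SE 0.135, limma adjusted p = 0.245), and it was called with the deposited intensities (limma adjusted p = 0.0487, difference -0.55), with up to 0.568 under the other alternatives. Of all probe sets tested, 5.89% were called on the deposited scale. RTT109, the acetyltransferase that works with Asf1 and Vps75, differed by 0.0231 (SE 0.257, limma adjusted p = 0.969), and by -0.20 with the deposited intensities.

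**Figure D4:**
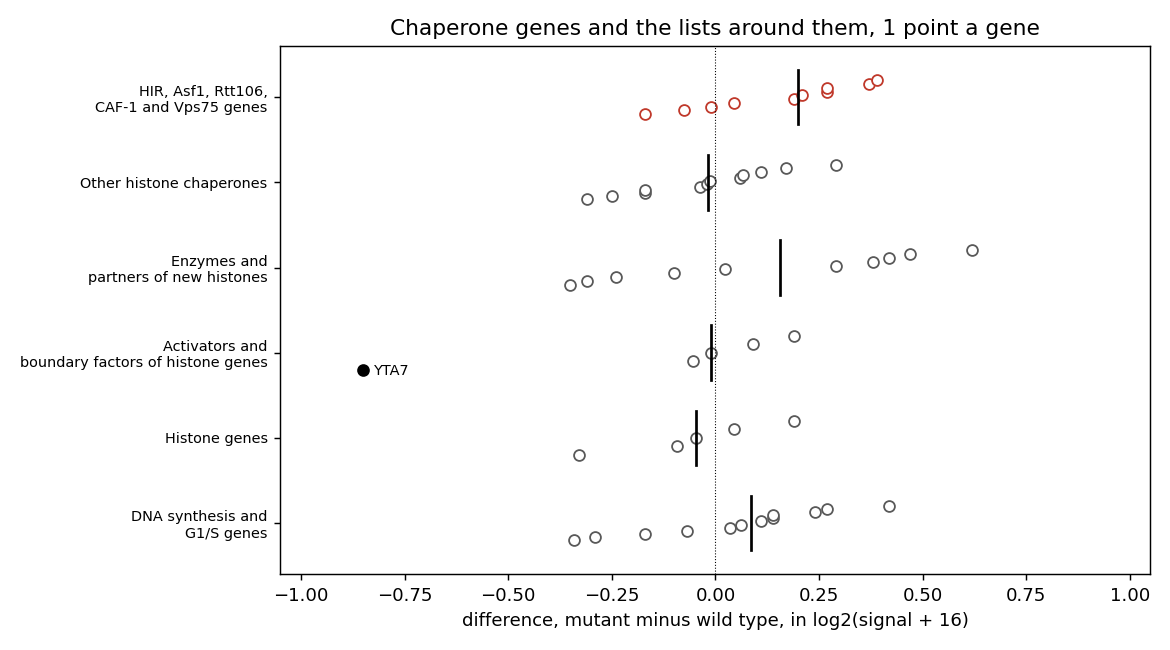
Difference between mutant and wild type (x axis, log2(signal + 16)), 1 point for each tested gene at its brightest single-gene probe set, for the 10 chaperone and HIR genes (top, red) and 5 lists around them (grey), with the list median as a vertical bar. YTA7, the filled point at -0.85, is the only gene past the limma threshold.

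The genes that HIR represses were read mostly by probe sets shared between copies. The H4 pair HHF1 and HHF2 had 3044 ± 440.0 in the mutant and 2843 ± 391 in the wild type (SD, n = 3 each), a difference of 0.098 (SE 0.147, limma adjusted p = 0.758), which was -0.15 with the deposited intensities. Both probe sets of the H2A pair HTA1 and HTA2 were uncalled, at -0.092 (SE 0.111) and -0.12 (SE 0.131). HTB1, one of the H2B genes, is HIR-regulated and differed by 0.0442 (SE 0.123), and HTB2, the other, is not and differed by -0.092 (SE 0.116), both named after their values were seen. With the deposited intensities HTB1 was at -0.21 and HTB2 at -0.34. The H3 pair HHT1 and HHT2, whose sequence differs between the groups by design, had 1 probe set at -1.57 (SE 0.121, limma adjusted p = 0.00125) and 1 at -0.11 (SE 0.114, limma adjusted p = 0.648). A further H3 probe set lay under the filter and was not tested, at 18.6 ± 9.25 in the mutant and 8.88 ± 1.85 in the wild type (SD, n = 3 each). At these low signals all its mutant values lay above all its wild-type values, as was so for 14.3% of all probe sets tested. Of the 5 histone genes with a single-gene probe set, none was called, nor had an unadjusted p under 0.05, against 19.6% of all probe sets tested. The linker histone gene HHO1 differed by -0.33 (SE 0.157, limma adjusted p = 0.287) and the centromeric variant CSE4 by 0.19 (SE 0.137, limma adjusted p = 0.490), and CSE4 was at -0.044 with the deposited intensities.

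CAF-1 and Asf1 act on newly copied DNA, and 12 genes of DNA synthesis and the G1/S transition were read beside their genes. None was called and 2 had an unadjusted p under 0.05, against 19.6% of all probe sets tested. The median difference was 0.085. RNR1, the large subunit of ribonucleotide reductase, gave 1374, 1349 and 1431 in the mutant replicates, against 1723, 1722 and 1821 in the wild-type replicates. RNR1 did not overlap between the groups, as was so for 25.8% of all probe sets tested. Its difference was -0.34 (SE 0.113, limma adjusted p = 0.145), and it was called with the deposited intensities (limma adjusted p = 0.0265, difference -0.59), with up to 0.454 under the other alternatives. Of all probe sets tested, 5.89% were called on the deposited scale. POL2, the catalytic subunit of DNA polymerase epsilon, differed by 0.42 (SE 0.142, limma adjusted p = 0.148), or by 0.17 with the deposited intensities. The cell cycle stage of the cultures was not measured here.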

How the data were processed

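RNA of 6 yeast cultures, 3 mutant and 3 wild type, was measured on Affymetrix arrays. The authors deposited linear probe set intensities from MAS5, per the submitters' processing notes, which give no version. Values of the wild-type arrays step in units of 0.1, whereas those of the mutant arrays do not and have lower trimmed means, for a reason not given in the sources used here. Of 9335 probe sets, 60 controls were left out.

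Arrays were brought to a common 2% trimmed mean of 500. The 6808 probe sets with an average of 50 or more were tested with limma 3.58.1 (R 4.3.3, lmFit and eBayes with an intensity trend) on log2(signal + 16), which understates changes of dim probe sets. Benjamini-Hochberg adjustment ran over all of them, with calls at an adjusted p under 0.05. The procedure was tested on simulated data. Precision is limited by the number of arrays (median SE 0.162). The sample titles number the replicates, and only the design text says that cultures were replicated, so p-values measure the spread between these samples.

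Names came from the platform annotation, and locus tags from a RefSeq gene table of assembly R64, which matched all members. No sequence is printed, since none was used here. Named genes were all 10 members and, from each list, the called genes or else the 2 with the smallest adjusted p. SPT10, SPT16, HAT2, RTT109, HTB1, HTB2, MFA1, BAR1 and SAG1 were named after their values were seen. Members and lists were chosen with earlier results of these data known. Alternatives comprised deposited intensities, equal medians, quantile normalization, offsets of 1 and 64, a filter at 200 or none, eBayes without the trend, a replicate block, and leaving out each sample.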

Additional observations from a re-analysis of the deposited data

How the results depend on the processing

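No member probe set was called under any of the 15 alternatives, although a filter at 200 left HIR1, HPC2, RTT106 and CAC2 probe set 2805_g_at untested, and the smallest adjusted p of a member was 0.104 (MSI1 with deposited intensities). Of 176 recomputed member differences, 166 kept their sign. The other 10 were HIR1 (-0.0155), ASF1 (-0.0579), CAC2 probe set 2806_s_at (-0.12) and VPS75 (-0.19) with deposited intensities, and 6 with an array left out. With an array left out, HPC2 ranged from -0.18 to 0.12, CAC2 probe set 2805_g_at from -0.23 to 0.0663, CAC2 probe set 9740_at from -0.0505 to 0.0303 and VPS75 from -0.0841 to 0.12. Over all probe sets, 61 were called higher and 92 lower. The counts were 31 and 370 with deposited intensities, 33 and 54 with no filter, 41 and 57 with a filter at 200, and ranged from 13 to 124 and from 23 to 140 with an array left out. With the replicate block they were 108 and 147, and no member was called. Same-numbered deviations correlated at 0.125, 0.157 and 0.0424, and different-numbered ones at -0.131 to 0.0483. The labels do not name equal numbers as pairs, and the main test had no block. Whether the cultures were paired was not tested. In the lists, 0 genes were called higher, but 1 (RTT101) without an intensity trend. Called lower was 1 (YTA7), but 4 with deposited intensities, and 0 to 1 with an array left out. With 3 arrays a group the median SE of a member difference was 0.152, which limits how small a difference could be called.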

Other observations

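Mating-type markers were read beside the members. All 5 a-specific genes, each at its brightest single-gene probe set, had lower means in the mutant, with a median difference of -0.44. Of all probe sets tested, 52.5% had a higher mean in the mutant. None was called with arrays scaled equally. With the deposited intensities MFA1 (difference -0.69, limma adjusted p = 0.0329) and BAR1 (-0.78, limma adjusted p = 0.0468) were called lower, the lowest of 15 alternatives each, which reached 0.346 and 0.373. On that scale 5.89% of all probe sets tested were called in either direction, and their median difference was -0.22. With arrays scaled equally the BAR1 difference was -0.54 (SE 0.181, limma adjusted p = 0.147). MFA1, an a-factor gene, had 1746 ± 271 in the mutant and 2354 ± 48.4 in the wild type (SD, n = 3 each, limma adjusted p = 0.129). The other MFA1 probe set, 6020_r_at, did not share this direction, with a difference of 0.0153 (SE 0.242, limma adjusted p = 0.977). Of 4 alpha-specific genes, 1 had a higher mean, SAG1, which encodes alpha-agglutinin. SAG1 had 256 ± 24.0 in the mutant and 175 ± 19.1 in the wild type (SD, n = 3 each), a difference of 0.51 (SE 0.145) with a limma adjusted p = 0.101. With the deposited intensities the SAG1 difference was 0.27 (limma adjusted p = 0.195), and over 15 alternatives the adjusted p ran from 0.0699 to 0.311.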
